A study of Vachellia cornigera with 24 samples.

Results

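Genes for lipid transfer proteins and for enzymes of wax and cuticle lipids were followed in nectaries of Acacia cornigera (now Vachellia cornigera), the swollen-thorn acacia; these extrafloral nectaries are sugar-secreting glands on its leaves. The members are the rows whose description names a lipid transfer protein, a 3-ketoacyl-CoA synthase, a GDSL lipase, an eceriferum gene or a long-chain acyl-CoA synthetase, with the row of LTP1 (AT2G38540) added and AT1G74460 left out. This gave 59 of the 12650 genes in the table. They comprise 18 lipid transfer proteins, 24 GDSL lipases, 7 3-ketoacyl-CoA synthases and 2 long-chain acyl-CoA synthetases. The same wording also took in 6 glycolipid and StAR-type transfer proteins and 2 Pmr5/Cas1p acyl-esterases, which are not cuticle genes. They are listed as families of their own, but counts and medians over all members include them. No description holds the word eceriferum. Each gene carries the name of its closest Arabidopsis thaliana locus, so a name stands for the nearest relative, and reads of close paralogs may have been divided between or merged into 1 row.

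The tree lives with the ant Pseudomyrmex ferrugineus, which feeds on the nectar. RNA came from nectaries pooled over several wild-growing plants for each biological replicate, and gave 24 libraries in 10 groups. Plants with their ants were sampled at 9 am (3 libraries), noon (3), 2 pm (1), 3 pm (3), 3 am of day 2 (2) and 8 am (3), and the 8 am libraries are titled controls. The ant treatments were ants removed for 2 days (3 libraries, "no ants" below), a Gracilis replacement (3, "Gracilis") and application of gut contents (2, "gut contents"). Another treatment was titled ants replaced after 2 days (1, sampled at 9 am, "returned ants"). Titles of the other ant treatments give no clock time, so treatment and hour or day of sampling cannot be told apart in comparisons with 8 am. The labels do not say what Gracilis stands for, whose gut contents were applied or which plants were pooled. Nor do they say which ants were placed after 2 days, and the name "returned ants" reads that title as resident ants put back.

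The plant cuticle is a layer on the outer wall of epidermal cells that slows the loss of water and solutes. It consists of cutin, a polyester of hydroxylated fatty acids, and of waxes made from very-long-chain fatty acids. Long-chain acyl-CoA synthetases activate fatty acids with coenzyme A, and 3-ketoacyl-CoA synthases carry out the condensing step of each round of elongation. Small secreted lipid transfer proteins bind lipids and are abundant in epidermal walls, and some GDSL lipases join or cut ester bonds of cutin and other wall polymers. In nectaries the cuticle is of interest because nectar leaves the gland through it, or through pores in it.

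Values are normalised counts as deposited, which summed to between 21084266 and 32520511 per library. The highest total belongs to the lone 2 pm library, which stands apart from the others. Over the member genes, no 9 am (0 of 3), 3 pm (0 of 3), 3 am (0 of 2) or gut contents library (0 of 2) was nearest to another of its own group, and only 1 of the 3 controls was, so comparisons are also given with single libraries left out. Noon samples 1 and 3 and no ants samples 2 and 3 were far more alike than other replicates: the median absolute log2 difference over all genes was 0.0767 and 0.0824, against 0.126 to 0.563 in the 18 other pairs. Calls were therefore also made with both such pairs averaged. Of the 3 nectary markers listed (SWEET9, CWINV4 and CRC), 2 were in the table, with a summed count of 224162 to 280480 at 8 am. Their sum was 88476 to 170056 at 3 am and 21449 to 159468 at 9 am. It was lower at 2 pm (33379), noon (18076 to 20296) and 3 pm (10269 to 25897). In whole nectaries, fewer cells of a type and less RNA per cell cannot be told apart.

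**Figure D1:**
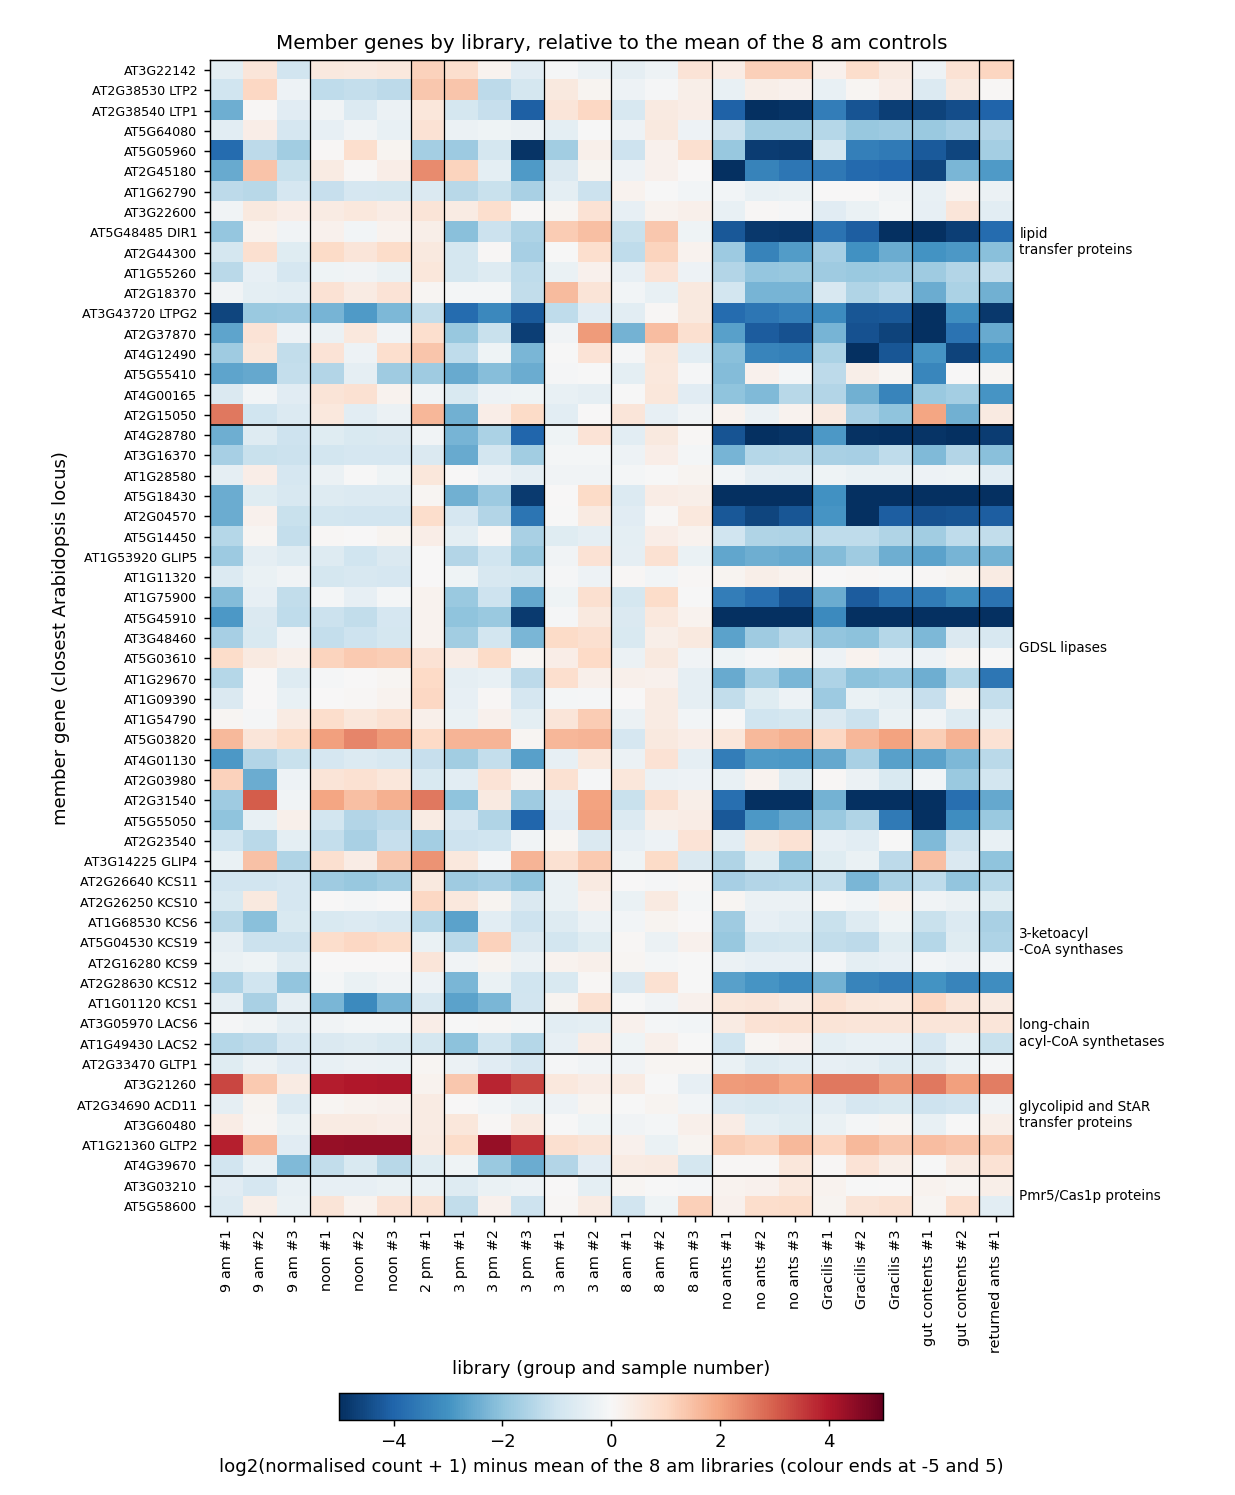
The 57 tested members (rows, by family) in the 24 libraries (columns), coloured by log2(normalised count + 1) minus the mean of the 3 libraries of the 8 am controls. Blue is below and red above the controls; most lipid transfer and GDSL rows are blue in the 9 ant-treatment libraries at the right, while LTP2 and AT3G22142 at the top are not.

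The comparison of ant treatments with the 8 am controls asked how nectaries under each treatment differ from control nectaries. The labels do not say whether resident ants were present when Gracilis or gut contents were used. Below, libraries with resident ants are those outside the ant treatments, and the returned ants library is counted among the treatments. Of the 57 members that passed the filter on low values, 31 were lower and 3 higher without ants (limma, adjusted p below 0.05), against 15.9% lower and 11.6% higher among all 12264 genes tested. Their median log2 fold change was -1.23, and that of all genes was -0.05. In Gracilis libraries 27 members were lower and 3 higher (all genes 16.7% and 13.7%; member median -1.04). With gut contents 29 were lower and 3 higher (all genes 12.9% and 9.12%; member median -1.47). These 3 comparisons share the 8 am libraries. An F test over 8 am and the 3 replicated treatments called 32 members (22.3% of all genes). The F count was 19 without 8 am sample 2, where 1306 in place of 2731 of all genes were called. Leaving out gut contents sample 1 leaves 1 library in that group, and fewer members were called, all lower. With both near-identical pairs averaged, 24 were lower and 1 higher without ants (1817 of all genes called, in place of 3368).

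Among lipid transfer proteins, 12 of 18 were lower without ants, 11 with Gracilis and 12 with gut contents, and 0 were higher. LTP1, a secreted lipid transfer protein of epidermal walls, had 10300, 24254 and 22594 normalised counts at 8 am. It had 1070, 527 and 593 without ants, 1619, 900 and 679 with Gracilis, 728 and 827 with gut contents and 1114 with returned ants. All 9 ant-treatment libraries lay far below the 8 am libraries. The log2 fold change was -4.68 ± 0.69 (SE) without ants (25.6-fold lower; adjusted p = 0.000187), -4.16 ± 0.69 with Gracilis (adjusted p = 0.000373) and -4.52 ± 0.77 with gut contents (adjusted p = 0.000809). One library with resident ants, 3 pm sample 3, had 1050 counts and fell inside the range of the treatments. The remaining 14 ranged from 3259 (9 am sample 1) to 36208 (3 am sample 2).

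Its close relative LTP2 (AT2G38530) did not follow. LTP2 had 19973, 22593 and 29042 counts at 8 am and 18388, 28657 and 27730 without ants, and the groups overlap (log2 fold change 0.05 ± 0.55, adjusted p = 0.955). At noon it had 9848, 10439 and 9492 counts, less than in any 8 am library, and 3 pm sample 2 with 9616 was as low. The member with the highest counts, AT3G22142, is described as a bifunctional inhibitor and lipid transfer superfamily protein. It had 31099, 35439 and 67089 counts at 8 am and 54438, 94918 and 97053 without ants, which overlap too (0.92 ± 0.42, adjusted p = 0.110). Since these genes supply most of the family's counts, the summed lipid transfer counts overlap between ant treatments (54949 to 130028) and the other 15 libraries (49303 to 205410). Within a library, LTP1 stood at 0.0184 to 0.0888 of the LTP2 count in the 9 treated libraries and at 0.516 to 1.07 in those from 8 am. The lowest ratio with resident ants was 0.0824, again at 3 pm. Transcript lengths were not available, so each ratio is comparable between libraries but is not a ratio of molecules.

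DIR1 (AT5G48485), known in Arabidopsis for carrying a long-distance signal of systemic acquired resistance, had 501, 2831 and 934 counts at 8 am. Counts were 57, 38 and 37 without ants, 83, 62 and 33 with Gracilis, 21 and 41 with gut contents and 76 with returned ants. Every treated library was below every one of the other 15, whose lowest value was 258 at 3 pm. DIR1 fell by 4.64 ± 0.56 on the log2 scale without ants (adjusted p = 5.22e-05), and its changes with Gracilis and gut contents were -4.28 ± 0.56 and -5.18 ± 0.63 (adjusted p = 8.26e-05 and 0.000113).

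LTPG2 (AT3G43720) is a lipid transfer protein anchored to the plasma membrane that takes part in wax export in Arabidopsis. It had 1134, 1740 and 2295 counts at 8 am, 114, 135 and 155 without ants, 188, 84 and 86 with Gracilis, 47 and 197 with gut contents and 58 with returned ants. The treated libraries did not overlap the controls, but 9 am sample 1 with 68 counts and all 3 pm libraries (115, 176 and 88) were as low. The log2 fold change without ants was -3.62 ± 0.61 (adjusted p = 0.000507). AT5G64080, named XYP1 in Arabidopsis and one of the xylogen-type proteins of vascular tissue, changed less. It went from 3693, 6270 and 3750 counts at 8 am to 2129, 1315 and 1338 without ants (-1.51 ± 0.27, adjusted p = 0.000691), and all 9 treated libraries (1199 to 2129) were below the other 15 (2504 to 7261).

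The largest falls in the family beyond these were in AT2G45180, AT5G05960 and AT2G37870, with log2 changes of -4.03 ± 0.90, -3.80 ± 1.01 and -3.73 ± 1.12 without ants (adjusted p = 0.00332, 0.0104 and 0.0202). AT5G05960 was uneven: 960 counts in no ants sample 1 against 132 and 127 in samples 2 and 3, and 1906 in Gracilis sample 1 against 332 and 303. It was not called with Gracilis (adjusted p = 0.0583). AT2G37870 varied at 8 am itself (86, 1304 and 776), and its adjusted p without ants reached 0.108 when 8 am sample 2 was left out. The calls were also lost without 8 am sample 3 (0.0728), no ants sample 2 (0.0684) or no ants sample 3 (0.0737).

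**Figure D2:**
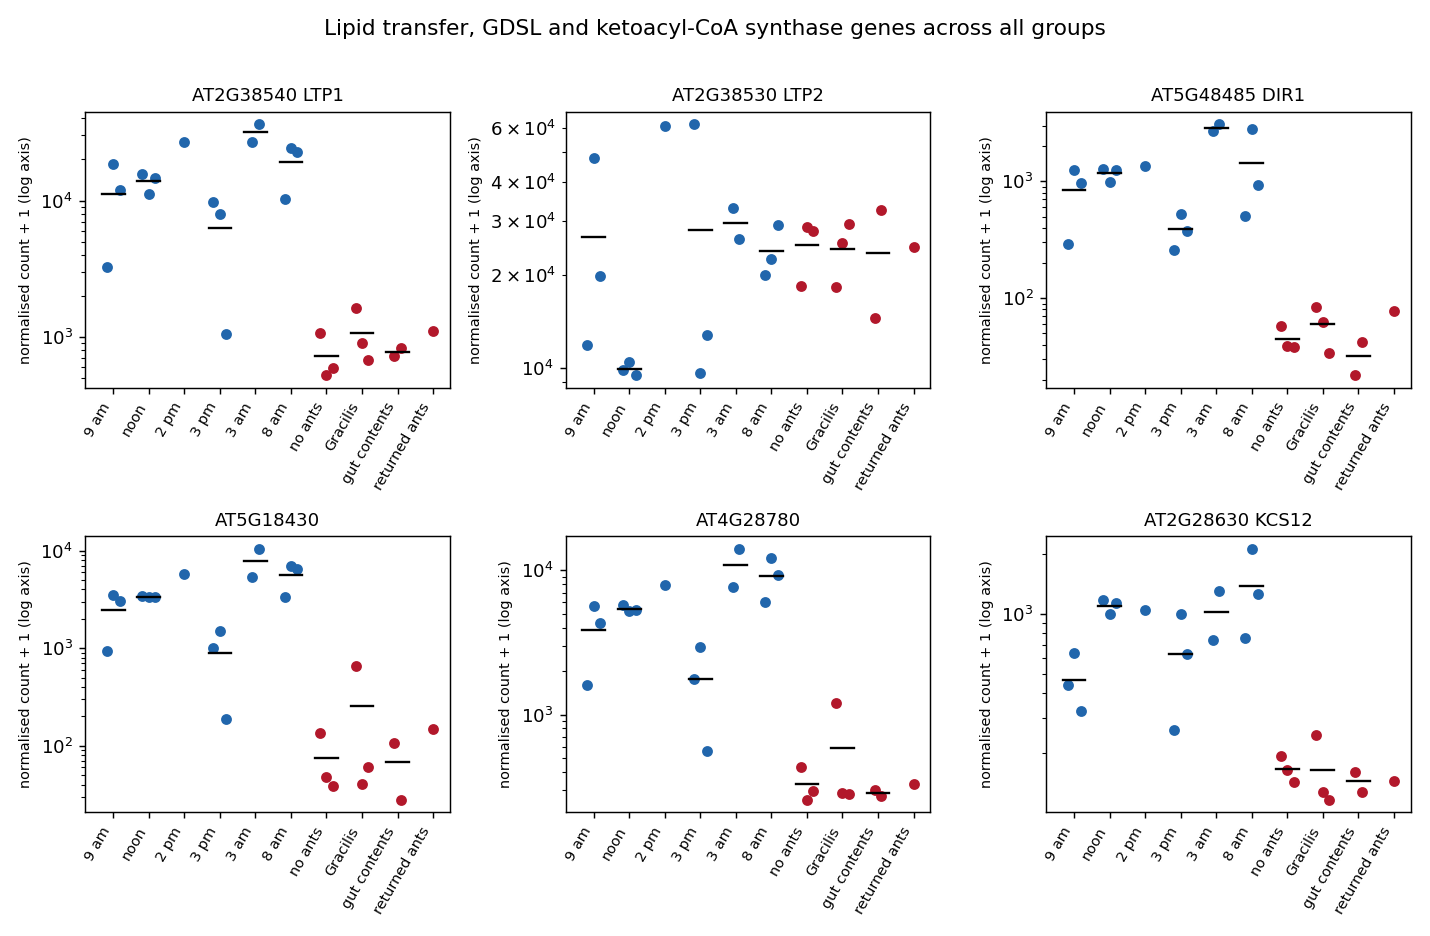
Normalised count + 1 (log axis) of 6 members in each library, with bars at group means; blue, plants with resident ants; red, ant treatments. LTP1, DIR1, AT5G18430, AT4G28780 and KCS12 are low in the red groups (LTP1 at 527 to 1619 counts), and LTP2 is not.

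Of 22 GDSL lipases tested, 13 were lower and 1 higher without ants, 12 and 1 with Gracilis, and 13 and 1 with gut contents. Their counts summed to 6969 to 10027 in the 9 treated libraries, 26412 to 46180 at 8 am and 7861 to 49957 in all 15 libraries with resident ants. Only 3 pm sample 3 (7861) was within the treated range.

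AT5G18430, a GDSL lipase, had 3316, 6869 and 6488 counts at 8 am. It had 134, 47 and 38 without ants, 656, 40 and 59 with Gracilis, 106 and 27 with gut contents and 147 with returned ants. Gracilis sample 1 was more than any other treated library, yet well under the controls. The log2 fold changes were -6.39 ± 0.90 (83.6-fold lower), -5.49 ± 0.90 and -6.59 ± 1.01 in that order of the 3 replicated treatments (adjusted p = 0.000138, 0.000356 and 0.000453).

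AT4G28780 was the GDSL lipase with the highest counts. It had 6060, 12217 and 9195 at 8 am, 435, 256 and 293 without ants, 1196, 284 and 281 with Gracilis, 297 and 271 with gut contents and 327 with returned ants. The groups again did not overlap, and Gracilis sample 1 was again the highest of the treated libraries. AT4G28780 fell by 4.78 ± 0.59 without ants, 4.26 ± 0.59 with Gracilis and 4.95 ± 0.66 with gut contents (log2; adjusted p = 5.63e-05, 0.000115 and 0.000167).

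AT5G45910 had 516, 1231 and 970 counts at 8 am and 10, 5 and 20 without ants, a log2 change of -6.26 ± 0.78 (adjusted p = 5.96e-05). Its Gracilis libraries had 92, 11 and 22 counts, and those with gut contents had 7 and 12. On the log2(count + 1) scale the change of genes with so few counts is understated. For AT2G31540, listed at 2, 0 and 0 without ants and at 18, 70 and 49 at 8 am, no fold is given. AT2G04570 (-4.37 ± 0.65, adjusted p = 0.000203) and AT1G75900 (-3.84 ± 0.53, adjusted p = 0.000116) fell without ants as well. AT3G16370, second of the family in mean count, fell less: from 5694, 8588 and 6388 counts to 1345, 2556 and 2596 (-1.71 ± 0.33, adjusted p = 0.00122).

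One GDSL lipase rose. AT5G03820 had 25, 64 and 58 counts at 8 am and 67, 142 and 159 without ants, 95, 144 and 187 with Gracilis and 109 and 155 with gut contents. All treated libraries in the 3 replicated groups were above the controls, though no ants sample 1 was close to them. It was 2.50-fold, 2.97-fold and 2.82-fold higher in these groups (log2 fold change 1.32 ± 0.46 without ants; adjusted p = 0.0412, 0.0161 and 0.0455). None of these calls held throughout. Without 8 am sample 1 the change without ants was 0.90 (adjusted p = 0.182), and that call was also lost without 8 am sample 3 (0.0518) or no ants sample 2 or 3 (0.134 and 0.155). The Gracilis call was lost without 8 am sample 1 (0.0854), Gracilis sample 2 (0.0514) or Gracilis sample 3 (0.0723). The gut contents call was lost when any 1 of its 5 libraries was left out (0.0527 to 0.226). With pairs averaged, adjusted p was 0.169 without ants and 0.0667 with gut contents. AT1G28580, among the 12 members with the highest mean, was called in none of the 9 comparisons; its counts were 2606, 2769 and 3095 at 8 am and 2550, 2061 and 2017 without ants. The 2 GDSL genes under the filter were low throughout. AT4G16230 was listed at 11, 22 and 6 at 8 am, 43 and 55 at 3 am and 0 to 2 in all 9 treated libraries, and AT5G45950 at 5, 4 and 1 at 8 am and at 0 in all 9.

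Of 7 3-ketoacyl-CoA synthases, which set the chain length of wax precursors, 4 were lower without ants and 2 each with Gracilis and gut contents. KCS12 (AT2G28630) had 761, 2125 and 1260 counts at 8 am and 193, 164 and 143 without ants. It had 246, 127 and 116 with Gracilis, 160 and 127 with gut contents and 145 with returned ants. All 9 treated libraries were below the lowest of the other 15, which was 261 at 3 pm. The log2 fold changes were -2.93 ± 0.44, -3.04 ± 0.44 and -3.14 ± 0.49 (adjusted p = 0.000202, 0.000151 and 0.000465).

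KCS11 (AT2G26640) went from 5660, 5479 and 5833 counts at 8 am to 1767, 2065 and 2111 without ants, 2410, 1168 and 1830 with Gracilis and 2369 and 1452 with gut contents (-1.52 ± 0.23, -1.71 ± 0.23 and -1.61 ± 0.26; adjusted p = 0.000257, 0.000111 and 0.000597). The treated values (1168 to 2410) overlapped those at noon and 3 pm (1408 to 1773) in plants with ants. KCS19 (AT5G04530) and KCS9 (AT2G16280) were called lower without ants (-1.23 ± 0.45, adjusted p = 0.0497; -0.38 ± 0.14, adjusted p = 0.0477) and not called with Gracilis or gut contents. The KCS19 call was lost when any 1 of the 6 libraries was left out (adjusted p = 0.0662 to 0.186). KCS6 (AT1G68530), the main elongase of stem wax in Arabidopsis, had 3792, 4570 and 4266 counts at 8 am and 1212, 3119 and 2938 without ants. These did not overlap, and the difference was not called (-0.91 ± 0.45, adjusted p = 0.143). KCS10 (AT2G26250), known as FIDDLEHEAD and needed to keep epidermal surfaces from fusing, was called in none of the 9 comparisons. It had 2283, 3860 and 2635 counts at 8 am and 3025, 2313 and 2305 without ants. KCS1 (AT1G01120) had 414, 371 and 497 counts at 8 am and 632, 642 and 572 without ants, higher in each library but not called (0.53 ± 0.38, adjusted p = 0.319).

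The 2 long-chain acyl-CoA synthetases differed. LACS6 (AT3G05970), a peroxisomal enzyme of fatty acid breakdown and not of cuticle synthesis, had 1808, 1464 and 1410 counts at 8 am and 2086, 2536 and 2624 without ants. It had 2398, 2383 and 2347 with Gracilis, 2331 and 2337 with gut contents and 2348 with returned ants. All 9 treated libraries were above all 15 others, whose highest was 1956 in the 2 pm library. LACS6 rose by 0.63 ± 0.13, 0.61 ± 0.13 and 0.59 ± 0.14 on the log2 scale (adjusted p = 0.00193, 0.00206 and 0.00830). With 1 gut contents library left out, adjusted p for that comparison was 0.0652 (without sample 1) and 0.0501 (without sample 2). LACS2 (AT1G49430), which activates cutin precursors in Arabidopsis, had 1064, 1462 and 1210 counts at 8 am and 616, 1326 and 1425 without ants, and was not called (-0.23 ± 0.30, adjusted p = 0.606).

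Of the 6 glycolipid and StAR-type transfer proteins, which move membrane lipids inside cells, AT3G21260 was higher in each treatment. It had 142, 106 and 80 counts at 8 am, 474, 481 and 414 without ants, 661, 674 and 493 with Gracilis, 674 and 449 with gut contents and 625 with returned ants. Groups did not overlap, and the log2 fold change was 2.09 ± 0.58 without ants, 2.49 ± 0.58 with Gracilis and 2.36 ± 0.65 with gut contents (adjusted p = 0.0137, 0.00423 and 0.0159). Leaving out 8 am sample 3 took the first and last of these past the threshold (adjusted p = 0.0535 and 0.0513), as did leaving out gut contents sample 1 for the last (0.139). AT2G34690, known as ACD11 and a carrier of ceramide phosphates that restrains cell death, had 400, 449 and 372 counts at 8 am and 252, 242 and 249 without ants. It was lower in each treatment (log2 fold change -0.71 ± 0.19 without ants, adjusted p = 0.0114). GLTP1 (AT2G33470) was lower by 0.50 ± 0.15 in log2 units, with 2550, 3136 and 3080 counts at 8 am and 2321, 1864 and 2029 without ants (adjusted p = 0.0190). That call was lost without 8 am sample 2 (0.0825), 8 am sample 3 (0.0649), no ants sample 2 (0.0895) or no ants sample 3 (0.0600). Neither Pmr5/Cas1p gene was called in any of the 9 comparisons.

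**Figure D3:**
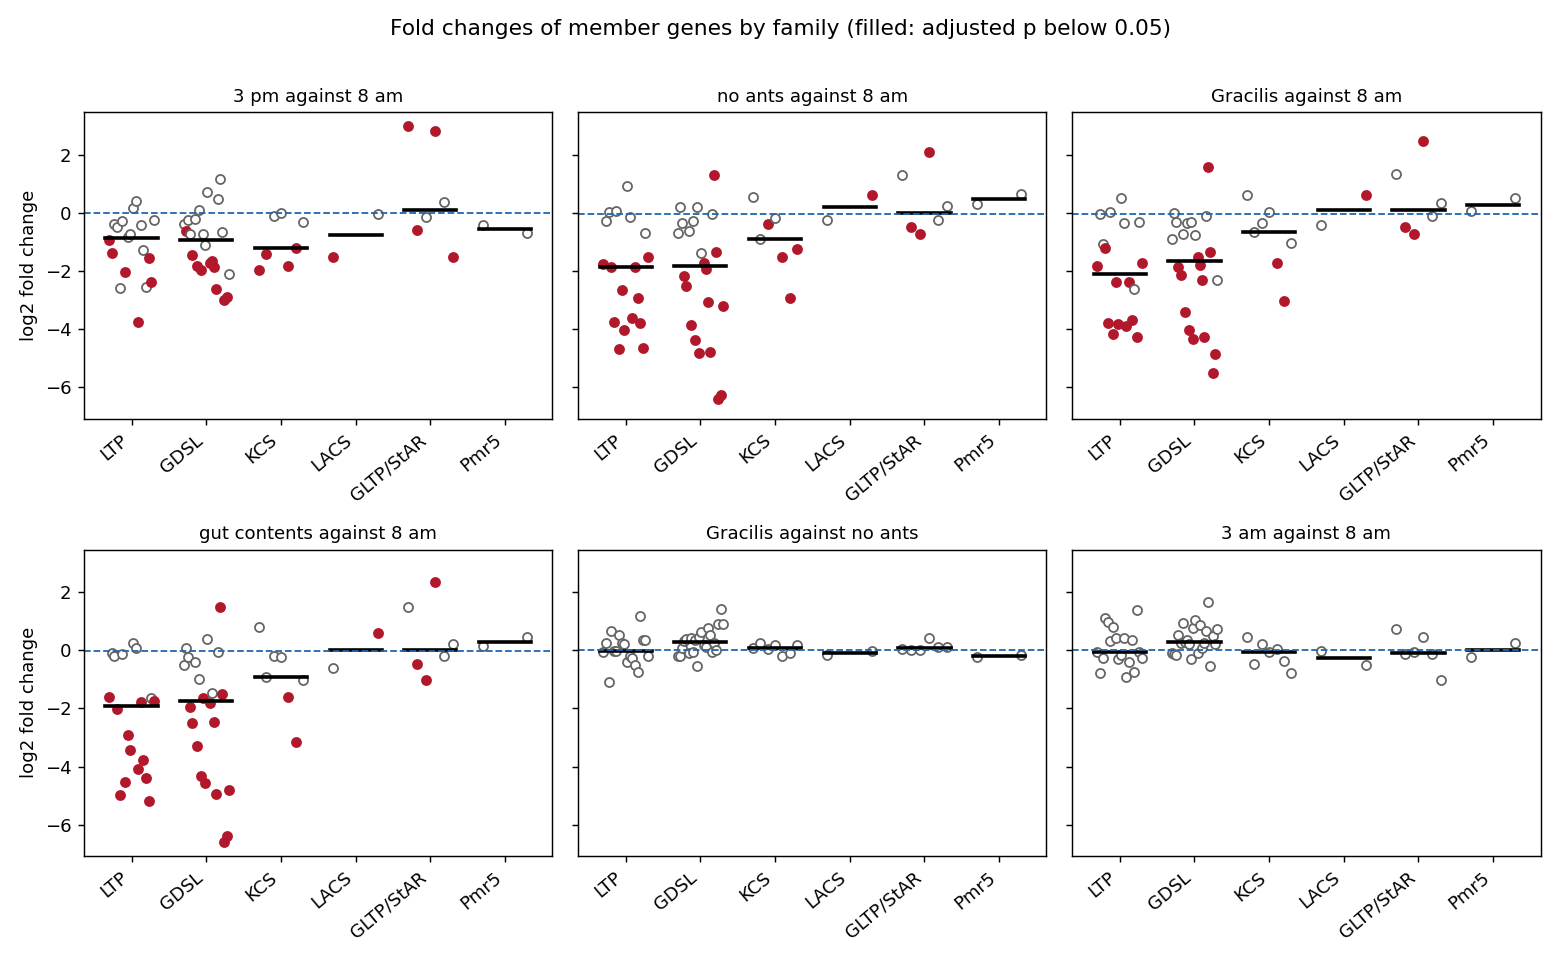
log2 fold change of each tested member (points) by family in 6 comparisons; filled red points have an adjusted p below 0.05 and black bars are family medians. LTP, lipid transfer proteins; KCS, 3-ketoacyl-CoA synthases; LACS, long-chain acyl-CoA synthetases; GLTP/StAR, glycolipid and StAR-type transfer proteins. Lipid transfer and GDSL points reach far below 0 in the ant treatments (medians -1.87 and -1.82 without ants), and 0 points are filled for Gracilis against no ants and 3 am against 8 am.

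Across all libraries, 5 of the 57 tested members were lower in each of the 9 treated libraries than in any of the other 15 (3.33% of all genes): AT5G64080, DIR1, KCS12, AT2G31540 and the lipid transfer protein AT4G00165. One, LACS6, was higher in all 9 (3.52% of all genes). Gracilis did not differ from no ants in any member (0 of 57; all genes 0%, limma). At an unadjusted p under 0.05 the counts were 0 members and 76 of all genes, and the count was still 0 members with a replicate block, under which sample numbers pair the libraries.

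The single library with returned ants allows no test. Of the 31 members that were lower without ants, 30 lay below the range of the 8 am libraries in it, against 34.9% of all genes. These 31 were chosen as low against the same 8 am libraries. The 3 members that were higher without ants lay above that range. Against the 9 am libraries, taken at the hour of this one, 21 of the 31 were below their range, 8 within and 2 above (all genes 20% below and 35% above), and of the 3 higher members 1 was above and 2 within. The 31, unlike all genes, were chosen as low in the no ants libraries, which by itself favours values above their range in another library. This comparison therefore cannot show a recovery. Against the range of the no ants libraries, 4 of the 31 were below, 11 within and 16 above (all genes 19.4% below and 37.4% above). Examples of the last kind are DIR1, with 76 counts against 37 to 57, and AT5G18430, with 147 against 38 to 134. Both remained far from their 8 am values. LTP1 with 1114 counts was just above 527 to 1070.

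For the times of day, the question was how these genes differ between hours in plants with ants. An F test over 9 am, noon, 3 pm, 3 am and 8 am called 29 of 57 members and 4865 of all genes (39.7%). With both near-identical pairs averaged it called 17 members and 3201 of all genes. The 29 were 7 lipid transfer proteins, 12 GDSL lipases, 5 3-ketoacyl-CoA synthases, both long-chain acyl-CoA synthetases and 3 glycolipid transfer proteins. At 3 am, 0 members differed from 8 am (limma, 0.832% of all genes). An unadjusted p under 0.05 was seen in 7 of 57 members and 1415 of 12264 genes tested, which are similar shares.

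At noon 4 members were higher and 7 lower than at 8 am (19.7% and 17.7% of all genes). With these groups fitted alone, 8 were higher and 20 lower, while the calls over all genes went from 4585 to 6994. Both nectary markers and 5 of 6 green tissue markers were lower at noon too, SWEET9 by 69.6-fold and the light-harvesting gene LHCA4 by 80.7-fold (log2 fold change -6.12 ± 0.72 and -6.33 ± 0.88, adjusted p = 1.21e-05 and 4.93e-05), and their part in the member changes was not tested. KCS1, which acts in wax synthesis in Arabidopsis, had 86, 46 and 83 counts at noon, 414, 371 and 497 at 8 am and 465 and 727 at 3 am. The noon libraries were below all others but 3 pm samples 1 and 2 (65 and 86). KCS1 was lower at noon than at 8 am by 2.60 ± 0.38 in log2 units (adjusted p = 8.50e-05), and higher at 3 am than at noon by 3.06 ± 0.43 (adjusted p = 0.000301).

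KCS11 had 1665, 1504 and 1681 counts at noon, 1654, 1773 and 1408 at 3 pm, 2924, 2877 and 3190 at 9 am, 5660, 5479 and 5833 at 8 am, 4459 and 7766 at 3 am and 7938 at 2 pm. Noon and 3 pm were low and overlapped, 9 am lay between, and 8 am and 3 am were high and overlapped; the 2 pm library was the highest. The log2 fold change was -1.81 ± 0.23 for noon (adjusted p = 2.71e-05) and -1.82 ± 0.23 for 3 pm (adjusted p = 3.92e-05), both against 8 am. KCS19 went the other way at noon, though its rise over 8 am was not called. It had 4726, 5210 and 4783 counts at noon, 2681, 2076 and 2950 at 8 am, 1341 and 1651 at 3 am and 1880, 1209 and 1216 at 9 am. The 3 pm libraries were split, with 986, 5599 and 1525. The change from noon to 3 am was -1.72 ± 0.50 (adjusted p = 0.0226), and it was lost when any 1 of the 5 libraries was left out (0.0512 to 0.157).

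The strongest noon rises were in 2 glycolipid transfer proteins. AT3G21260 had 1614, 1733 and 1747 counts at noon, 142, 106 and 80 at 8 am, and 152 and 138 at 3 am. Its other groups were mixed: 1091, 265 and 141 at 9 am, 270, 1498 and 1103 at 3 pm and 121 at 2 pm. It was 15.8-fold higher at noon than at 8 am (log2 fold change 3.98 ± 0.58, adjusted p = 8.32e-05). GLTP2 (AT1G21360) had 388, 403 and 401 counts at noon, 21, 14 and 20 at 8 am and 32 and 29 at 3 am, with 283, 59 and 12 at 9 am and 35, 388 and 241 at 3 pm. Noon libraries were high together, 8 am and 3 am libraries low together, and 9 am and 3 pm held both kinds. The log2 change from 8 am to noon was 4.38 ± 0.82 (adjusted p = 0.000636). The other rises at noon were the GDSL lipases AT5G03820 (190, 253 and 201 counts; 2.21 ± 0.46, adjusted p = 0.00138) and AT5G03610 (1.21 ± 0.27, adjusted p = 0.00199).

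The remaining falls at noon were in LTPG2, AT1G62790, AT1G11320, AT2G23540 and AT3G16370. LTPG2 had 332, 231 and 346 counts against 1134, 1740 and 2295 at 8 am (-2.47 ± 0.61, adjusted p = 0.00467). AT1G62790, a lipid transfer superfamily protein, had 848, 1045 and 1020 against 2135, 1848 and 1720 (-0.97 ± 0.19, adjusted p = 0.000995). AT3G16370 was at the threshold (-0.85 ± 0.33, adjusted p = 0.04997) and its call was lost when any 1 of the 6 libraries was left out (0.0572 to 0.169). That of AT2G23540 (adjusted p = 0.0245) was lost without 8 am sample 3 (0.125) or noon sample 2 (0.0889).

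Noon against 9 am called 5 members, 3 higher (GLTP2, AT3G21260 and KCS19) and 2 lower (KCS1 and KCS11), against 8.33% higher and 4.03% lower among all genes. With the counts rescaled by medians of ratios the split was 2 higher and 3 lower. The count was 0 when the near-identical pairs were averaged (95 of all genes) and 0 without 9 am sample 3 or noon sample 2 (138 and 220 of all genes). It was 1 without noon sample 1 or 3 (219 and 188 of all genes). It was 8 without 9 am sample 2 and 9 without 9 am sample 1 (1790 and 2596 of all genes). At 9 am, GLTP2 had 283 counts in sample 1 and 12 in sample 3, so the group is not of 1 kind.

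From noon to 3 am, 4 members were higher and 3 lower (9.89% and 10.4% of all genes). The higher ones were KCS1, KCS11, the GDSL lipase AT3G48460 (1.92 ± 0.52, adjusted p = 0.0162) and the GDSL esterase AT1G11320 (0.70 ± 0.19, adjusted p = 0.0140). Both GDSL calls were lost with near-identical pairs averaged (adjusted p = 0.0515 and 0.0548), and that of AT1G11320 with a replicate block (0.0591). The lower ones were AT3G21260, GLTP2 and KCS19. Without 3 am sample 1 or 2, the log2 change was 1.82 or 2.01 for AT3G48460 and -3.73 or -3.59 for GLTP2. The count of 7 was smaller when either 3 am library was left out, which leaves 1 library at 3 am. With these groups fitted alone, 17 were higher and 9 lower, while the calls over all genes went from 2493 to 6058.

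**Figure D4:**
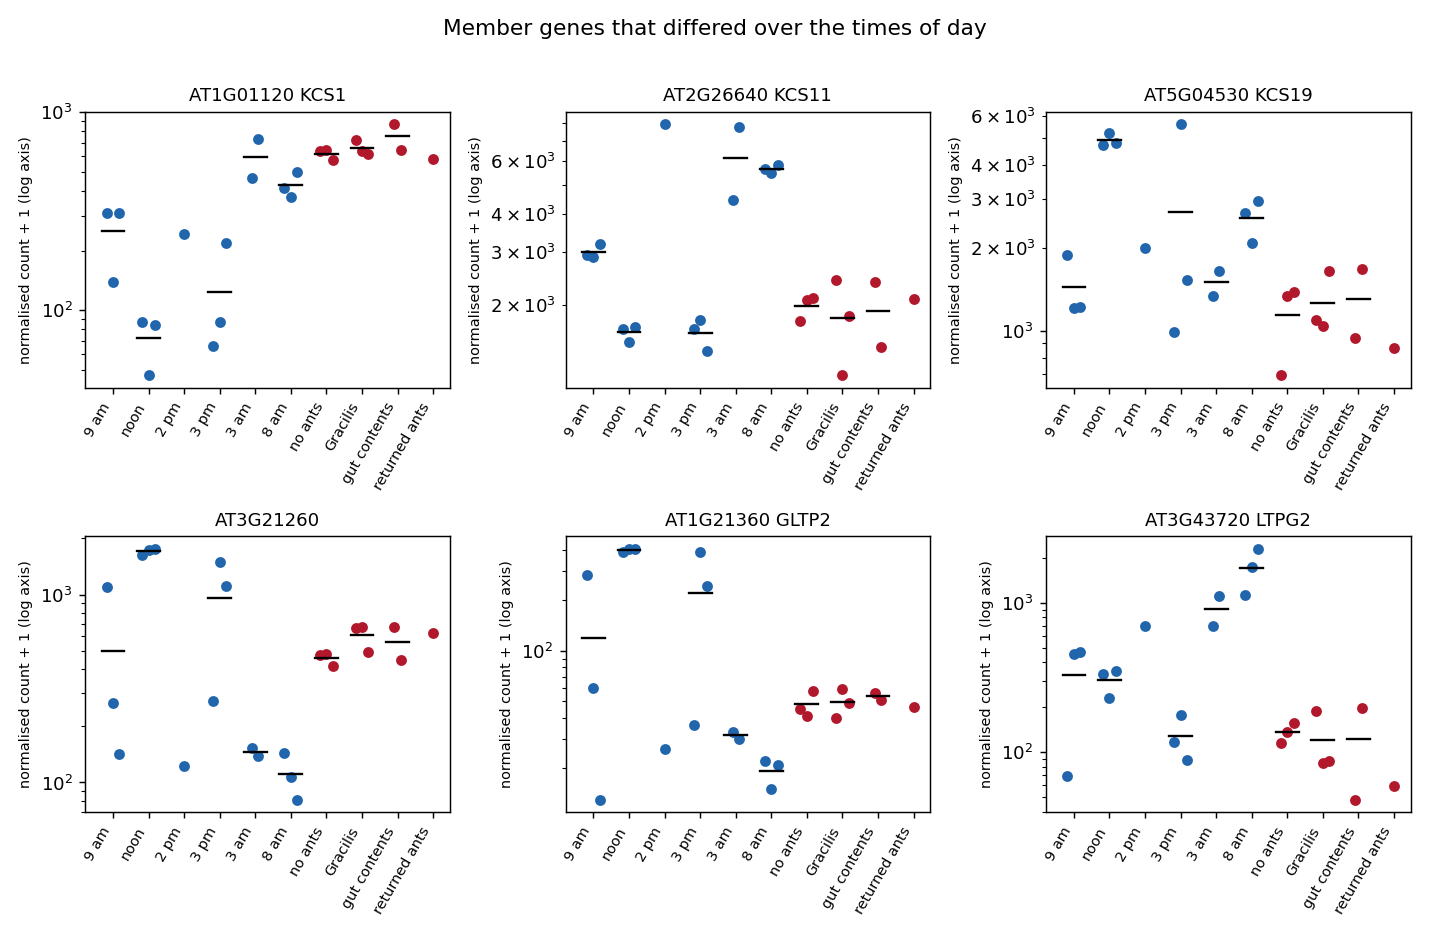
Normalised count + 1 (log axis) of 6 members in each library, with bars at group means; blue, plants with resident ants by time; red, ant treatments. KCS1, KCS11 and LTPG2 are lower at noon than at 8 am, AT3G21260 and GLTP2 are higher at noon (GLTP2 at 388 to 403 counts against 14 to 21), and both of these spread widely at 9 am and 3 pm (GLTP2 at 12 to 283 and 35 to 388).

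At 3 pm, 23 members were lower and 2 higher than at 8 am, against 19% and 17.8% of all genes, with a member median of -0.73. The lower ones were 10 GDSL lipases, 6 lipid transfer proteins, 4 3-ketoacyl-CoA synthases, 2 glycolipid transfer proteins and LACS2. LTPG2 had 115, 176 and 88 counts at 3 pm, all far below 8 am (-3.76 ± 0.61, 13.5-fold lower, adjusted p = 0.000252). AT4G28780 had 1761, 2918 and 562 counts against 6060, 12217 and 9195 (-2.63 ± 0.59, adjusted p = 0.00257). LACS2 had 297, 611 and 457 counts against 1064, 1462 and 1210 (-1.50 ± 0.30, adjusted p = 0.00131). In each of these the 3 pm libraries did not overlap the controls.

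LTP1 was less even at 3 pm, with 9759, 8010 and 1050 counts. Its log2 fold change was -2.03 ± 0.69 (adjusted p = 0.0285), and -1.01 without 3 pm sample 3 (adjusted p = 0.171). It also lost its call without 8 am sample 2 (0.0927) or sample 3 (0.0845). KCS6 had 653, 2905 and 2052 counts (-1.41 ± 0.45, adjusted p = 0.0214), and -0.78 without 3 pm sample 1 (adjusted p = 0.121). The KCS6 call was also lost without 8 am sample 2 (0.0607) or sample 3 (0.0521). With the 2 groups fitted alone adjusted p was 0.0886, and 0.0503 with a replicate block. The count of 25 calls was 15 without 8 am sample 2, and 15 with the 2 groups fitted alone. Over all genes the calls went from 4516 to 3464 and 2082 in these settings. The rises at 3 pm were AT3G21260 and GLTP2, with 2.83 ± 0.58 and 2.98 ± 0.82 (adjusted p = 0.00146 and 0.00972; GLTP2 0.0527 without 3 pm sample 2). The 2 pm library, without replicate, lay above the 8 am range for 25 of 57 members and below it for 13, while 64.4% of all genes lay above.

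Other genes of the cuticle pathway were taken from lists of Arabidopsis loci. Of 8 cutin genes in the table, 5 were lower in each of the 3 replicated ant treatments (all genes 15.9%, 16.7% and 12.9%). DCR, an acyltransferase needed for cutin, had 2580, 6036 and 6661 counts at 8 am and 101, 79 and 79 without ants (-5.76 ± 0.72, adjusted p = 6.43e-05). The fatty acid hydroxylase gene CYP86A2 had 3828, 6125 and 8642 counts and 658, 434 and 468 (-3.52 ± 0.38, adjusted p = 3.76e-05). Neither pair of groups overlapped. CYP77A6 and the glycerol acyltransferase GPAT6 fell by 3.00 ± 0.34 and 2.13 ± 0.44 (adjusted p = 3.90e-05 and 0.00194), and the exporter ABCG32 by 0.77 ± 0.24 (adjusted p = 0.0253). Of 6 cuticle regulators 1 was lower, a share near that of all genes. It was the transcription factor WIN1, with 581, 1052 and 895 counts at 8 am and 63, 91 and 74 without ants (-3.43 ± 0.57, adjusted p = 0.000463).

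Of 14 wax genes, 2 rose and 2 fell in each ant treatment, near the shares of all genes (11.6% higher and 15.9% lower without ants). The rises were in CER9, a ubiquitin ligase (0.66 ± 0.16 without ants, adjusted p = 0.00519), and ABCG11, an exporter of wax and cutin (0.84 ± 0.30, adjusted p = 0.0458). The falls were in FATB, which releases saturated fatty acids from the plastid (-1.70 ± 0.30, adjusted p = 0.000714), and CER10, the last enzyme of the elongation cycle (-0.87 ± 0.19, adjusted p = 0.00278). Of 10 plastid fatty acid synthesis genes, 4 fell without ants, 6 with Gracilis and 4 with gut contents (all genes 15.9%, 16.7% and 12.9%). At 3 pm against 8 am, 5 cutin genes, 5 wax genes, 6 fatty acid genes and WIN1 were lower, and 1 wax gene (CER4) was higher (all genes 19% lower and 17.8% higher). At noon against 8 am, 4 cutin, 5 wax and 5 fatty acid genes were lower, and 2 wax genes and 1 regulator were higher; the shares of all genes were 17.7% lower and 19.7% higher, so the higher counts are not above them. CER2, required for the longest wax chains, fell by 4.38 ± 0.58 at noon (adjusted p = 3.57e-05), from 504, 291 and 316 counts to 22, 14 and 14. CER4, a reductase that makes wax alcohols, rose by 2.17 ± 0.40 (adjusted p = 0.000570). At 3 am against 8 am 0 genes of these lists were called.

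**Figure D5:**
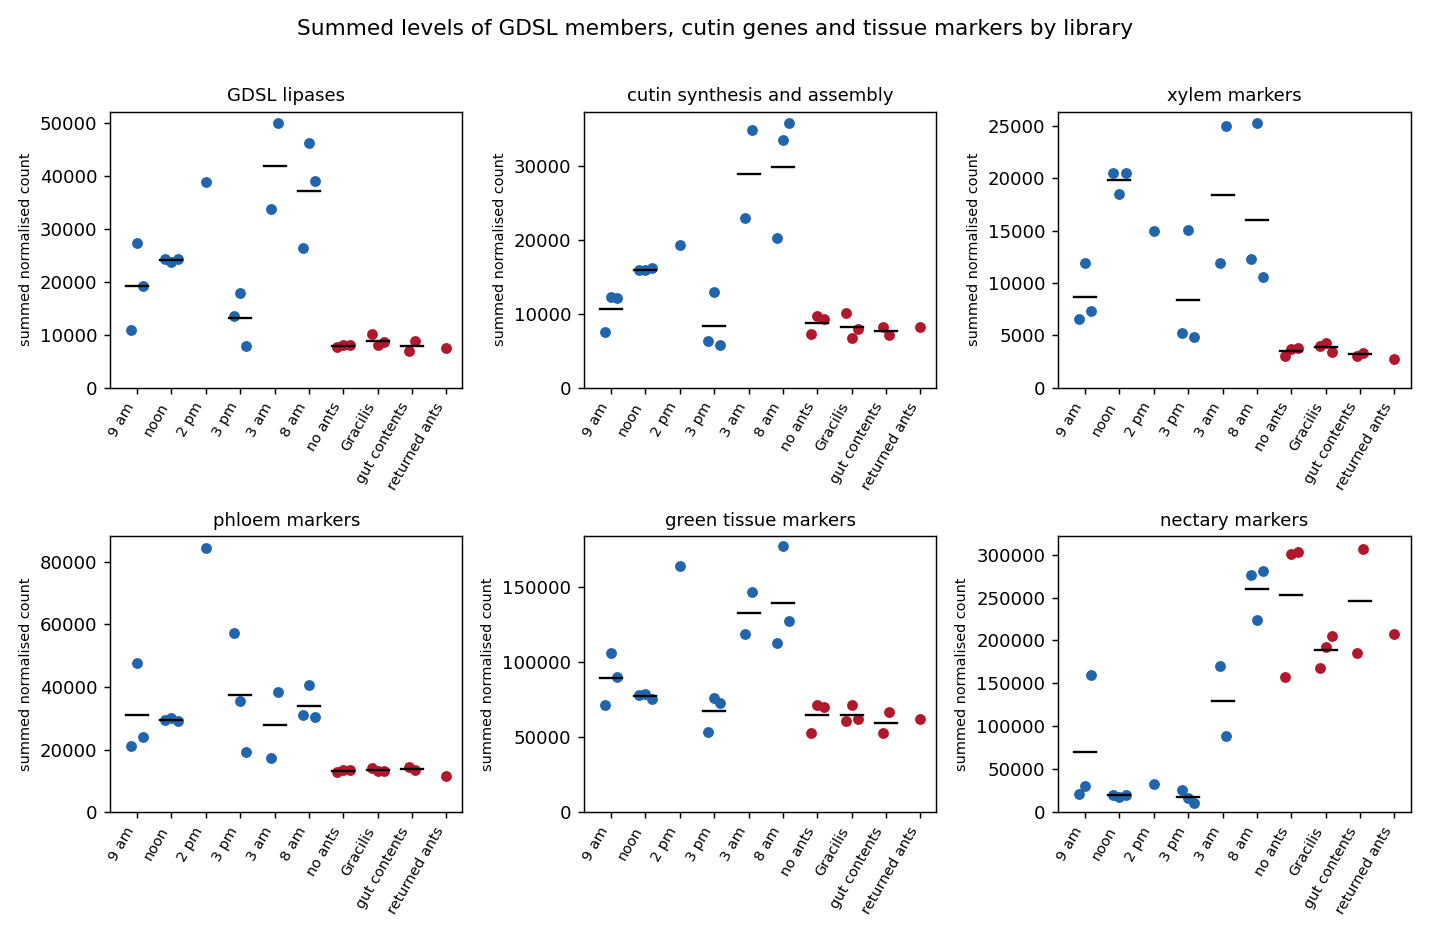
Summed normalised counts per library of the GDSL members, the 8 cutin genes and 4 lists of tissue markers, with bars at group means; blue, plants with resident ants; red, ant treatments. GDSL, cutin, xylem and phloem sums are low together in the ant treatments (xylem 2748 to 4223 against 10527 to 25255 at 8 am). The nectary sum is spread in the ant treatments (157380 to 306335) and overlaps that at 8 am (224162 to 280480).

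Markers of other tissues moved with the ant treatments. The 8 xylem markers summed to 2748 to 4223 counts in the 9 treated libraries and 10527 to 25255 at 8 am, and 6 were lower without ants, 5 with Gracilis and 6 with gut contents. The 5 phloem markers summed to 11567 to 14301 against 30336 to 40680 (3, 3 and 1 lower). The 6 green tissue markers summed to 52819 to 71268 against 112823 to 177721 (2, 2 and 1 lower). Of all genes, 15.9%, 16.7% and 12.9% were lower in these comparisons. With gut contents the 1 of 5 phloem and 1 of 6 green tissue markers called are near that share. Of the nectary markers SWEET9 was not called and CWINV4 was lower without ants (-2.93 ± 0.41, adjusted p = 0.000124); 0 of 4 guard cell markers were called. None of the listed markers in the table was at 0 in all libraries of a treatment. At 3 pm against 8 am 6 of 8 xylem markers, 6 of 6 green tissue markers and both nectary markers were lower (19% of all genes). The part of tissue makeup, and of the unknown hour of the ant treatments, in the lower lipid transfer, GDSL and cutin counts was not tested.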

How the data were processed

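RNA of pooled extrafloral nectaries was made into 24 TruSeq libraries and sequenced on an Illumina instrument, per the labels' protocols. The deposited values are a score: whole numbers that the authors obtained by normalising read counts. How they scaled, aligned and annotated is not given in the sources used here. The member genes and the lists were chosen with earlier results of these data known. A rule on mean level, size of change and p, with a fixed set of loci, picked 33 of 59 members to name. The text also names some members outside these 33 and leaves out some of them. Counts of calls of named members given below cover the 33. No reference sequence was used, so positions and sequences are not given.

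Values were tested as log2(value + 1) in 1 limma model (version 3.58.1, in R 4.3.3) with a mean-variance trend, fitted to all 24 libraries and holding 10 group terms (degrees of freedom 14 residual, 3.66 prior). Genes with a mean of at least 10 entered (12264; 386 left out), which 57 members passed. Tests were 2-sided, with Benjamini-Hochberg adjustment over all genes tested and a threshold of 0.05. The method was tested on simulated data. Each replicate pooled several plants, so p-values measure the spread between pools, and all groups share 1 estimate of it. The 2 pm and returned ants groups have 1 library each and were not tested.

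Sample numbers were checked for pairing by correlating deviations from group means. Of the comparisons with 3 pairs, every correlation of equal numbers was over 0.1 for Gracilis with no ants alone (0.514, 0.22 and 0.34). With 2 pairs, equal numbers gave 0.103 and 0.288 for 3 am with 8 am, and 0.314 and 0.104 for gut contents with 8 am. Some unequal numbers exceeded the lowest of these values in their comparison. They were 3 am 1 with 8 am 3 (0.178), gut contents 2 with 8 am 3 (0.195) and Gracilis 2 with no ants 3 (0.231). Deviations in a group of 2 mirror each other, and no ants samples 2 and 3 are near-identical, so these correlations cannot show pairing. The labels state no pairing. Alternatives were other scalings, a pseudocount of 10, no filter, each comparison fitted alone with and without a replicate block, near-identical pairs averaged and each library left out.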

Additional observations from a re-analysis of the deposited data

How the results depend on the processing

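All 3 ant treatments against 8 am kept mostly lower members under every alternative run. Leaving out 1 library at a time gave 26 to 33 called members without ants, 26 to 32 with Gracilis, 16 to 32 with gut contents (16 without gut contents sample 1) and 19 to 34 in the F test over ant treatment (19 without 8 am sample 2). The same gave 20 to 32 in the F test over time, 0 to 9 for noon against 9 am, 9 to 11 for noon against 8 am, 15 to 27 for 3 pm against 8 am (15 without 8 am sample 2), 3 to 6 for 3 am against noon and 0 for 3 am against 8 am.

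With near-identical pairs averaged, the F test over time called 17 members (3201 of all genes), noon against 9 am 0 (95 of all genes) and 3 am against noon 4 (1227 of all genes); of all genes, 1817 in place of 3368 were called without ants. With the 2 groups compared alone, noon against 8 am called 28, 3 am against noon 26 and 3 pm against 8 am 15 members. The calls over all genes were then 6994, 6058 and 2082. With a replicate block added, noon against 8 am called 28 members (6343 of all genes) and 3 am against noon 16 (3323 of all genes). Noon against 9 am called 3 (390 of all genes) and 3 am against 8 am 1 (354 of all genes). These groups share only the numbers. The block left Gracilis against no ants at 0. The cause of these differences was not tested.

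Median-of-ratios scaling moved the median of all genes for noon against 9 am from 0.21 to 0.01 (log2), and quantile normalisation moved that without ants from -0.05 to 0.09. Of 96 calls of named members, none changed direction; 109 of their 551 refits without 1 library lost the call, as did 19 with pairs averaged, 13 and 12 with groups alone and with the block, 4 under quantile normalisation, 2 without the filter, and 1 each under median-of-ratios scaling and a pseudocount of 10. Depth cannot be stated in reads, since normalised values do not give it. Members with under about 10 counts, such as AT2G31540 in the treatments, are limited by that.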
